A study of Danio rerio with 9 samples.

Results

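The 300 regions described here were the strongest of the accessible regions that every sperm library had in common. Peaks of the 9 deposited lists that overlapped by 1 bp or more were merged into 126838 regions, of which 1893 held a peak in all 9 lists. Within each list a peak received a rank percentile by its deposited score, with 100 for the best-ranked peak, and the 300 shared regions with the highest median percentile over the libraries were taken. Peak scores and detection therefore chose these regions, and their height against other regions is given as a description, without a test.

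The libraries were made by ATAC-seq, in which a transposase (Tn5) cuts open chromatin and tags it for sequencing, from 100000 spermatozoa each of adult zebrafish (Danio rerio). The injured group holds 5 libraries from males 7 days after cardiac cryoinjury, a lesion set by freezing part of the heart, and the control group 4 libraries from uninjured males. The comparison asks whether a heart injury is accompanied by altered accessibility in sperm. The labels give no strain, genotype or exact age and do not say whether a library came from 1 male or from several, so the p-values are set against a spread between libraries that may be only technical.

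Zebrafish sperm are known for packing their DNA on histones in place of the protamines that most mammalian sperm use, so that nucleosomes and open sites are kept in the mature cell. Open chromatin in general marks promoters and other regulatory elements, and it can also be scored over repeated DNA, where the copies that an assembly holds need not match the copies in the animal. No annotation of the build used by the submitters, GRCz11, was used here, so the regions are named by position and not by gene. The identity of the cells as spermatozoa could not be checked in peak lists.

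Depth per library is unknown. Per the labels 4.6 to 29 M reads were retained, with no value named for any single library, and the lists hold no totals. The lists held 29622, 25718, 15508, 24018 and 17613 peaks in injured libraries 1 to 5. In control libraries 1 to 4 they held 31611, 34354, 30126 and 45277, so every injured list was shorter than every control list. The lowest score was 13 in every list, and no source states the scale of the score.

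A small number of regions held a large part of the signal that was scored. The 300 regions took up 0.764% to 2.19% of the peaks of a library and 2.12% to 5.51% of the length covered by its peaks. They held 29.9% to 46.8% of its summed peak score, and the first 10 of them alone held 9.47% to 15.3%. The scale of the score is not stated, so these sums describe the lists and not a share of reads. In each library 283 to 299 of the 300 regions had a peak among the 1000 best-ranked.

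The median score of the 300 regions was 1275, 913, 580, 803 and 850 in injured libraries 1 to 5. In control libraries 1 to 4 it was 1200, 903, 1015 and 1162. The 2 groups overlapped. Raw scores move with the level of a whole library, whose depth is unknown, so libraries are compared below by relative scores, in which each score is divided by the median of all shared regions in its library. The other 1593 shared regions had medians of 73 to 129, so the 300 regions were 7.95 to 15.2 times as high within a library.

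**Figure D1:**
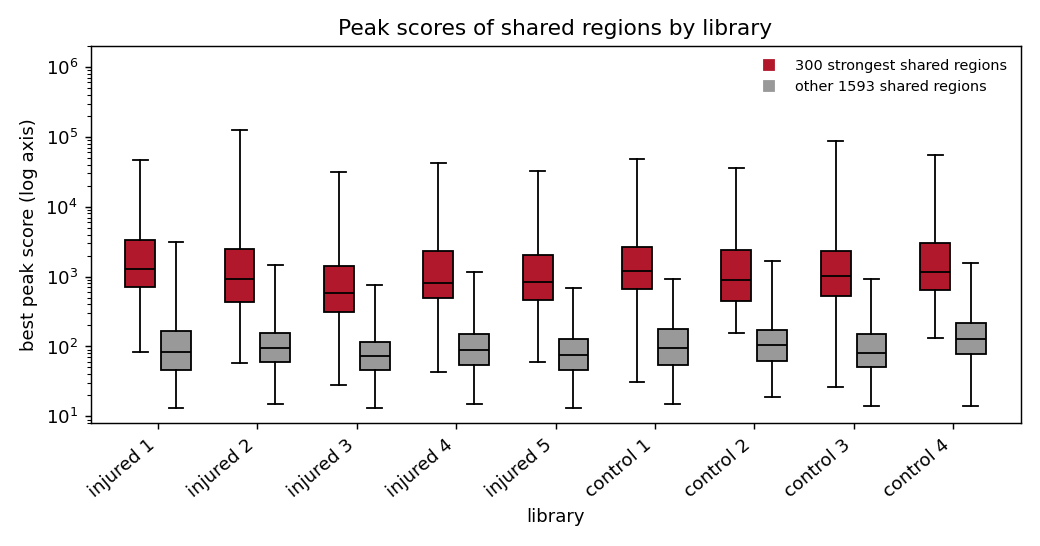
Best peak score of each shared region in each of the 9 libraries on a log axis, for the strongest 300 (red) and the other 1593 shared regions (grey); boxes span the quartiles, the line is the median and whiskers reach the lowest and highest value. Red medians lie between 580 and 1275 and grey medians between 73 and 129, and the ranges of both sets overlap in every library.

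The first region in order was also the narrowest. It lay on chromosome 17 (53384678 to 53384897) and was 220 bp wide. Its score was 40549, 34693, 31126, 32661 and 32401 in injured libraries 1 to 5 and 31668, 35234, 40266 and 41035 in control libraries 1 to 4. In relative scores the groups overlapped, and the highest library, control library 3, was 1.56 times the lowest, control library 4, the smallest spread of all 300. Its peak was 216 to 220 bp wide in every library and its midpoint moved by at most 2 bp. It lay within 100 kb of the last peak called on the chromosome. Its neighbour on chromosome 17 (53383100 to 53383772), 905 bp away, was 10th in order. That one scored 21261, 17462, 5935, 11774 and 15399 in injured and 19764, 21537, 10862 and 14767 in control libraries, with injured library 3 the lowest in relative score.

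Of the first 7 regions 3 lay on chromosome 24 within 48.1 kb. The strongest of them (12368715 to 12369975) was 2nd in order and scored 46255, 32337, 22636, 41355 and 30118 in injured libraries 1 to 5 and 48120, 33013, 33099 and 54252 in control libraries 1 to 4. In relative scores injured library 1 and control library 1 were the highest and control library 2 and injured library 3 the lowest, and the groups overlapped. The regions at 12415949 to 12416829 and 12378829 to 12380236 were 6th and 7th in order, with scores of 14507 to 32550 and 12061 to 33054. All 3 varied alike over the libraries, as described below for a larger group.

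The other regions among the first 10 lay on chromosomes 11, 4 and 15 and on 2 unplaced scaffolds. On chromosome 11 (15112250 to 15115698, 3rd in order) scores ran from 16704 to 40662, and on chromosome 15 (11486948 to 11488567, 9th) from 10087 to 27807. Scaffold KN150160.1 (5313 to 8209, 5th) scored 12278 to 31827. In relative scores injured library 1 was the highest and injured library 3 the lowest at these 3 regions. On chromosome 4 (63365098 to 63366854, 4th) the scores were 25869, 26810, 31862, 42222 and 30098 in injured and 39035, 23753, 25736 and 34847 in control libraries, with injured libraries 4 and 3 the highest in relative score.

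Scaffold KN149723.1 (1147 to 2695, 8th in order) stood apart from the rest of the first 10. Its score was 24660, 124216, 5413, 17636 and 4211 in injured libraries 1 to 5 and 7151, 30646, 88516 and 17316 in control libraries 1 to 4. The values of 124216 in injured library 2 and 88516 in control library 3 were the highest scores of those whole lists. Relative to its library's median of shared regions, the highest value was 23.9 times the lowest. Libraries of both groups were high and low at this region.

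Scores at the lower limit were far below those of the first 10 regions. The last 3 regions inside it lay on chromosomes 16 (18303638 to 18304841), 20 (19920220 to 19920533) and 18 (31571255 to 31572141), with median percentiles of 98.20, 98.16 and 98.15 and median scores of 320, 371 and 535. The first 3 outside it lay on chromosomes 4 (28594405 to 28594842), 15 (46045557 to 46046426) and 16 (30329625 to 30330874), with median percentiles of 98.14, 98.13 and 98.13 and median scores of 386, 310 and 356. Values on both sides of the limit overlapped. A high median did not require a high rank in every library: 158 of the 300 reached the 98th percentile in all 9 libraries, and 19 fell to the 90th percentile or lower in some library.

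Most of the 300 regions lay on chromosomes, but unplaced scaffolds and chromosome ends held a larger share of them than of the other shared regions. There were 245 on chromosomes 1 to 25, 52 on 30 unplaced scaffolds (names beginning with KN or KZ) and 3 on alternate contigs. Unplaced scaffolds held 17.3% of the 300, 6.53% of the other shared regions and 2.53% of all merged regions. Alternate contigs, which repeat parts of the chromosomes in another haplotype, held 1% of the 300, 7.34% of the other shared and 11.1% of all regions. These shares are descriptions, since the regions were chosen by score.

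Chromosome 4 held the most of any chromosome, with 41 of the 300 regions, followed by chromosomes 16 with 26, 7 with 22 and 10 with 15. Of the shared regions on chromosome 4, however, 14.2% were among the 300, against 25.7% on chromosome 16 and 22.4% on chromosome 7. Its 41 regions were placed unevenly: 1 lay before 25 Mb, 37 between 25 and 65 Mb, on the long arm known to be rich in repeats, and 3 beyond 65 Mb. Of the 25 chromosomes, 24 held at least 1 of the 300.

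Within 100 kb of a chromosome end lay 22 of the 245 regions on chromosomes (8.98%), against 12 of 1372 other shared regions (0.875%) and 0.589% of all regions on chromosomes. An end was taken as the first base or as the end of the last peak called on that chromosome in any list. Of the 22 regions, 13 lay at the beginning and 9 at the end, on 13 chromosomes. Some reached the first bases of the sequence, as on chromosomes 2 (4 to 426), 15 (4 to 921), 10 (11 to 1216) and 24 (40 to 1997). Among the 50 regions first in order 11 lay at chromosome ends and 13 on unplaced scaffolds.

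**Figure D2:**
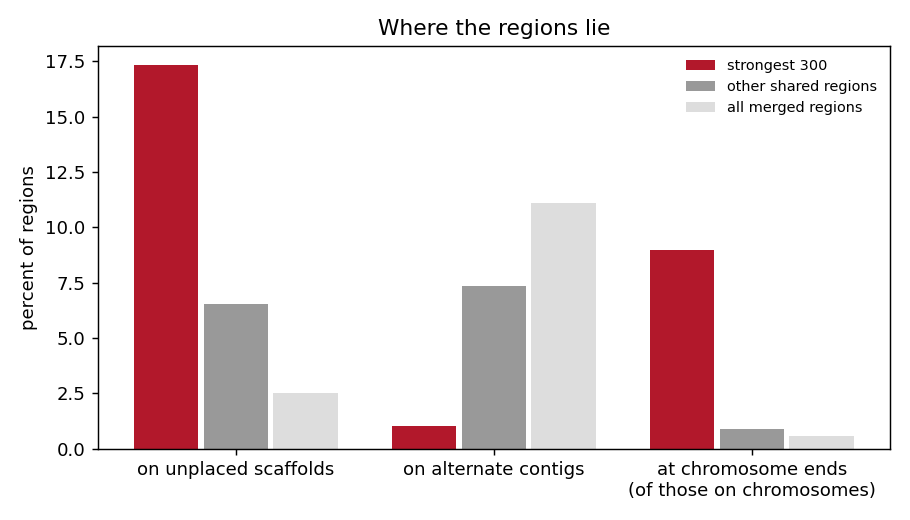
Percent of the strongest 300 regions (red), of the other 1593 shared regions (dark grey) and of all 126838 merged regions (light grey) that lie on unplaced scaffolds, on alternate contigs or, of those on chromosomes, within 100 kb of a chromosome end. The red bars stand at 17.3%, 1% and 8.98%.

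The 300 regions were often neighbours. Of the 300, 141 had another of them within 10 kb, and 125 lay in 24 runs of 3 or more in which neighbours were less than 50 kb apart. Of the other shared regions, which are more numerous, 23.2% lay in such runs among themselves, against 41.7% of the 300. Over all merged regions, which lie far more densely, 96.6% did, and the median gap to the nearest one was 1808 bp, against 9332 bp among the 300. The longest run held 11 regions in 80.3 kb of chromosome 12 (14325977 to 14406312). A run on chromosome 11 (15112250 to 15151457) held 10 regions in 39.2 kb, among them the one 3rd in order. Chromosome 16 carried runs of 8 (18181296 to 18243748) and 7 regions (25920958 to 25950086), and chromosome 10 runs of 7 (16789080 to 16839202) and 6 (12055473 to 12122632).

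Runs often held most of the shared regions between their first and last region, both of which belong to the 300 by construction. On chromosome 24 (12368715 to 12416829) all 6 shared regions of the run were among the 300, as were all 6 on chromosome 7 (53011249 to 53036048) and all 5 on chromosome 5 (815000 to 836726). In the run on chromosome 12, 11 of 18 shared regions were. The share was lowest on chromosome 10 (12055473 to 12122632), with 6 of 12, and chromosome 18 (31571255 to 31585204), with 3 of 6. The median gap between neighbours within a run was between 274 and 18330 bp.

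The peaks of the 300 regions were wide. The median width of a merged region was 914 bp, from 220 to 5011 bp, against 784 bp for the other shared regions and 246 bp for all merged regions. Within a library the best peak of a region had a median width of 638 to 751 bp, against 385 to 541 bp in the other shared regions and 190 to 281 bp over all peaks. A higher score went with only slightly greater width among the 300: Spearman's rho was 0.118 to 0.293 within a library, over 300 regions that share their library and are not independent.

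The widest regions were composites. On chromosome 5 (831716 to 836726) 5011 bp were covered and 7 of 9 libraries had more than 1 peak there. Next came chromosome 4 (54151074 to 54155307) with 4234 bp, split into several peaks in all 9 libraries, and scaffold KN150031.1 (569 to 4501) with 3933 bp. After the region on chromosome 17 the narrowest lay on chromosomes 18 (31584970 to 31585204) with 235 bp and 7 (55083410 to 55083668) with 259 bp. In 217 of the 300 regions every library had a single peak, in 80 some libraries had more and in 3 all did.

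The position of the best peak was reproduced closely in many of the regions. The midpoints of the 9 best peaks lay within 100 bp of each other in 141 of the 300 regions (47%), against 20.6% of the other shared regions. The median spread of midpoints was 112 bp against 216 bp. At the 2nd region in order, on chromosome 24, the best peak was 1224 to 1261 bp wide and its midpoint moved by 9.5 bp. Both groups had nearly the same edges there.

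Scores scaled together over the libraries. Pearson's r of log2 scores between 2 libraries over the 300 regions was 0.708 to 0.900 in the 36 pairs, with a median of 0.830. Over the other shared regions, whose scores span a smaller range, the median was 0.570. Regions of one library share its depth and are not independent, so these are descriptions. The slope of a library's log2 scores on the mean of the other libraries was 0.944, 1.06, 0.928, 0.973 and 0.985 in injured libraries 1 to 5 and 0.908, 0.996, 0.973 and 0.992 in control libraries 1 to 4. A slope of 1 means that strong and weak regions differ by the same factor as in the other libraries, and all 9 slopes lay near it. The libraries are set against each other, so an average slope near 1 follows largely from the high r and is no separate support.

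The regions differed widely in how much they varied over the libraries. Relative scores are taken against all shared regions, so the level of the 300 in a library stays in them. That level was 7.95 to 15.2 times the level of the other shared regions, and its part in the ranges below was not tested. In relative scores the highest library of a region was 3.50 times the lowest in the median, with quartiles of 2.51 and 5.76. The ratio stayed within 2-fold in 21 regions, lay between 2-fold and 8-fold in 229 and exceeded 8-fold in 50. The other shared regions had a higher median, of 3.92, with quartiles of 2.96 and 5.47, but fewer of them exceeded 8-fold, 9.60% against 16.7%. Their scores were lower, with a median of 88 against 931.5. No list held a score below 13, and a region without a peak in some list was not shared. Weaker regions therefore had less room to fall and still be counted, and the part of this in the shares was not tested. Among the first 150 of the 300 regions 10% exceeded 8-fold. Small ratios were found from the beginning to the end of the order: the 2nd lowest SD over the libraries belonged to a region on scaffold KN149787.1 (3416 to 5320), 292nd in order, with a ratio of 1.73 and scores of 276 to 829.

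**Figure D3:**
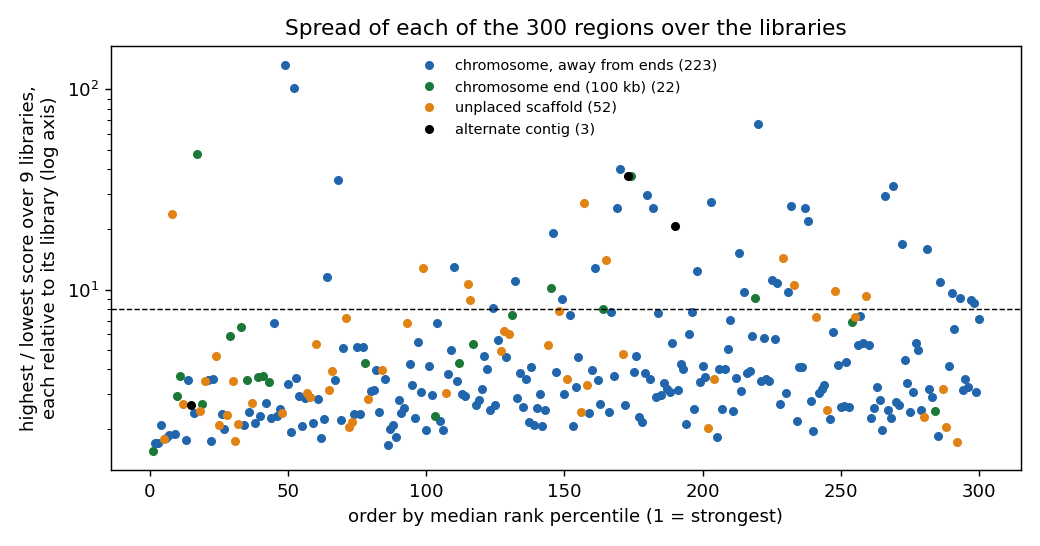
Highest over lowest score of each of the 300 regions over the 9 libraries, each score taken relative to its library's median of shared regions, on a log axis, against the order of the regions (1 is the strongest); colours give the kind of position. The dashed line marks 8-fold, above which 50 regions lie, 3 of them among the first 50 and 24 among the last 100.

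Some regions changed in fixed proportion to each other over all 9 libraries, although they lay on different sequences. For each pair of the 300 regions the log2 ratio of their scores was taken in every library, and its SD over the 9 libraries was 0.832 in the median of all pairs. In 314 pairs (0.700%) it was below 0.2. Of pairs of the other shared regions 0.00655% were below 0.2, but their scores are lower and the part of this in the result was not tested. Grouping regions so that every pair within a group stayed below 0.2 placed 103 of the 300 in 39 groups, 2 of which had more than 10 members. The limit was chosen after the values had been seen. With limits of 0.15 and 0.25 there were 60 and 153 regions in groups.

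The first of these groups held 14 regions on 8 sequences, among them 6 of the 10 strongest regions. They were 4 regions of the run on chromosome 24, 2 on chromosome 11, 3 on chromosome 16, 1 each on chromosomes 15 and 7, and 1 each on scaffolds KN150160.1, KN150570.1 and KN150014.1. The SD of the log2 ratio between 2 of them was 0.109 in the median and 0.188 at most. The 3rd region in order, on chromosome 11, scored 76.5% of the 2nd, on chromosome 24, with an SD of 0.0464 on the log2 scale. The 6th, also on chromosome 24, scored 62.9% of the 2nd (SD 0.0436). The weakest of the group, on chromosome 16 (18235572 to 18236537), scored 9.17% of the 2nd, from 7.57% to 10.2% over the libraries. Its SD was 0.132, where the grouping itself required less than 0.2. In relative scores injured library 1 was the highest in each of these 14 regions, and injured libraries 2 and 3 and control library 2 were the 3 lowest. The level of all 300 regions against the other shared regions was also highest in injured library 1. It was lowest in injured library 3, followed by control library 2. The part of this level in the order of libraries was not tested.

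The second group held 11 regions on 10 sequences, with another order of libraries. Of its 9 regions on chromosomes 6 lay within 100 kb of an end. They were on chromosomes 10 (11 to 1216), 13 (24497 to 24984), 2 (4 to 426), 17 (53459109 to 53460017) and 6, where one lay near each end (81957 to 83747 and 60191275 to 60192079). The other 3, on chromosomes 7, 18 and 12, lay 158822, 209602 and 150135 bp before the last peak of their chromosome. The 2 scaffold regions (KN149993.1, 16123 to 16913, and KN150242.1, 18929 to 20052) held the last peak of their scaffolds. The SD of the log2 ratio between 2 members was 0.0951 in the median and 0.140 at most.

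The strongest member of the second group, at the first bases of chromosome 10, scored 16091, 18282, 3849, 7573 and 7309 in injured libraries 1 to 5. In control libraries 1 to 4 it scored 5213, 13847, 13266 and 11985. Its relative log2 score was 7.30, 7.36, 5.52, 6.17 and 6.34 in injured libraries, against 5.48, 6.80, 7.08 and 6.26 in controls. Injured libraries 1 and 2 and control library 3 were the 3 highest and injured library 3 and control library 1 the lowest, as in each of the 11 regions, so both groups held high and low libraries. The region on chromosome 2 (4 to 426) followed it at 62.4% of its score, and the one on chromosome 17 at 32.2%. No genome was used here, so whether the regions of a group share sequence was not tested, and how reads with several matches were treated is not given in the sources used here. Where copies share reads, scores of the single positions are uncertain.

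**Figure D4:**
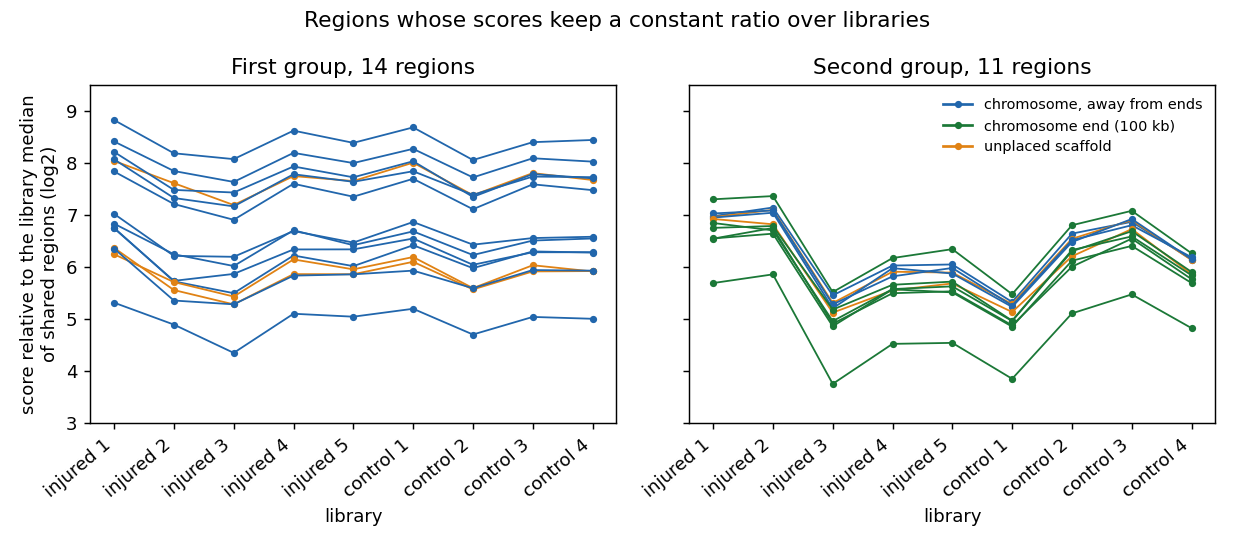
Log2 score relative to the library median of shared regions, for each region of the 2 largest constant-ratio groups in the 9 libraries, with 14 regions on the left and 11 on the right; each line is a region, coloured by position. Lines run nearly parallel within a panel, as the grouping required. Control library 1 is among the 3 highest libraries in the first group and among the 2 lowest in the second.

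The 22 regions at chromosome ends had a median relative log2 score of 6.26, 5.88, 4.25, 5.01 and 5.03 in injured libraries 1 to 5 and 4.47, 5.56, 4.72 and 5.20 in control libraries 1 to 4. Injured library 3 was the lowest and injured library 1 the highest, a 4.02-fold difference, and the groups overlapped. The same median differed 1.95-fold between the lowest and the highest library for the 223 other regions on chromosomes, where the same 2 libraries were lowest and highest. It differed 2.12-fold for the 52 regions on unplaced scaffolds and 1.71-fold for the 41 on chromosome 4, with another order of libraries. On scaffolds control library 2 was the lowest (3.24) and injured library 1 the highest (4.33). On chromosome 4 control library 4 was the lowest (2.15) and injured library 3 the highest (2.93). A median over fewer regions is less steady, and single regions differed less by position: the highest library was 4.31 times the lowest in the median region at ends, and 3.34 times in the other regions on chromosomes. These sets were formed after the values had been seen and were not tested. Relative scores keep the level of all 300 regions against the other shared regions. That level was lowest in injured library 3, at 7.95 times, and highest in injured library 1, at 15.2 times. The part of this level in these medians was not tested.

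Neighbours in a run also tended to vary alike, though less tightly and not in every run. The SD of the log2 ratio was 0.459 in the median of the 318 pairs within a run, against 0.832 over all pairs, and 5.66% of the pairs within runs were below 0.2. The most even run lay on chromosome 4 (28871082 to 28885007), with 4 regions and a median SD of 0.199. The run on chromosome 24 had 0.321, and that on chromosome 12 with its 11 regions 0.428. The runs on scaffolds KN150411.1 and KN150342.1 had 0.860 and 0.848, no lower than over all pairs.

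A few regions were strong in most libraries and low in others. On chromosome 17 (2363390 to 2366530, 49th in order) the scores were 83, 6120, 71, 7198 and 4294 in injured libraries 1 to 5 and 3235, 7435, 10529 and 9802 in control libraries 1 to 4. Injured libraries 1 and 3 were low and the other 7 high, and the relative scores spanned 132-fold, the widest range of the 300. The width followed: the best peak covered 813 and 457 bp in injured libraries 1 and 3 and 3079 to 3136 bp in the other 7.

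Another region of chromosome 17 (1557053 to 1557640, 52nd) scored 22043, 21569, 4465, 1098 and 3211 in injured and 2870, 22639, 208 and 1324 in control libraries. Injured libraries 1 and 2 and control library 2 were high and control library 3 low, a range of 102-fold. On chromosome 25 (26071 to 27012, 17th in order) control library 3 scored 376 where the other 8 libraries scored 3674 to 19721. On chromosome 20 (593973 to 594401, 269th) the scores were 825, 58, 412, 398 and 556 in injured and 31, 1076, 26 and 133 in control libraries, with high and low values in both groups.

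Of the 50 regions with a range over 8-fold, 36 lay outside the runs, 10 on unplaced scaffolds and 4 at chromosome ends. Among all 300, 125 (41.7%) lay in runs, 52 (17.3%) on unplaced scaffolds and 22 at chromosome ends. The scaffold and end counts of the 50 were thus near the shares of all 300. A larger part of the 50 than of all 300 lay outside the runs, and this was not tested. Injured library 1 was the highest in 22 of these 50, and in 127 of all 300. Injured library 3 was the lowest in 12 of the 50 and in 93 of the 300, and injured library 4 in 13 and in 30. The level of all 300 regions against the other shared regions was also the highest of any library in injured library 1, at 15.2 times, and the lowest in injured library 3, at 7.95 times. The part of this level in the counts was not tested.

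Between injured and control males no difference in these regions passed the test. The 300 regions held 39.9% ± 6.19 (SD, n = 5) of the summed score in injured libraries, against 36.4% ± 3.87 (SD, n = 4) in controls, by an exact two-sided permutation test p = 0.317. Peaks covered 279.5 ± 17.8 kb of them (SD, n = 5) after injury, against 293.8 ± 4.99 kb (SD, n = 4) without it, with p = 0.183 in the same exact test. The number of peaks in them was 344.4 ± 4.83 (SD, n = 5) against 346.5 ± 1.91 (SD, n = 4), for which the exact test gave p = 0.429. In each of these values the groups overlapped. For the share of score the overlap lay in injured library 2 alone, with 29.9%, which was below every control. Injured libraries 1, 3, 4 and 5 were all above the highest control value, 39.1% in control library 1. For width the overlap lay in injured library 1 alone, with 304.1 kb. Injured libraries 2 to 5 had 254.6 to 283.5 kb, below the 286.5 to 297.8 kb of the controls. The injured lists also held fewer peaks than the control lists, and the part of this in these values was not tested.

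The level of the 300 regions relative to the other shared regions, as a log2 ratio of medians, was 3.38 ± 0.36 (SD, n = 5) after injury, against 3.40 ± 0.31 (SD, n = 4) without it, with an exact p = 0.944. The slope on the other libraries was 0.978 ± 0.051 (SD, n = 5) against 0.967 ± 0.041 (SD, n = 4), with an exact p = 0.754. Adjusted over the 5 values compared, p was between 0.714 and 0.944. The smallest p this design allows is 0.00794.

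Region by region, limma was fitted to the log2 scores of all 1893 shared regions, each library centred on its median. It called 0 regions at an adjusted p below 0.05 (0% of those tested), and 0 of the 300, whose lowest adjusted p was 0.967. Before adjustment 3 of the 300 had p below 0.05, against 3.65% of all shared regions. All 3 were higher in injured libraries, where 2.75% of all shared regions were higher and 0.898% lower. The count of 3 moved when some single libraries were left out. It stayed at 3 without injured library 3, injured library 5 or control library 3, and was 4 without injured library 4. It was 17 without injured library 1 (7 higher and 10 lower) and 15 without control library 2 (12 higher and 3 lower). It was 6 without injured library 2 or control library 1 (each 4 higher and 2 lower) and 1 without control library 4. These changes were not all particular to the 300. Over all 1893 shared regions the count was 69 with every library. It also rose without injured library 1 (64 higher and 62 lower), control library 2 (to 170) or injured library 2 (to 97). It fell without control library 1 (to 62), where that of the 300 rose, and without control library 4 (to 56). Without injured libraries 3, 4 and 5 and control library 3 it was 52, 70, 51 and 58. Of the 300 regions 141 had a higher mean in injured libraries, which is 47%, against 52.8% of all shared regions. Their median difference was -0.02 on the log2 scale, against 0.03 over all regions tested. The standard error of a difference was 0.43 in the median and up to 1.18, so changes of this order could not have been told from the spread between libraries. Larger changes could be missed too. In simulated data with the means and SDs of the 1893 regions, each region drawn independently, 200 regions were changed by a known amount. A change of 1 on the log2 scale was called in 2 of the 200 (1%), and a change of 2 in 170 (85%). At a change of 2, 7 unchanged regions were called as well. With fewer regions changed the adjustment is stricter, so these shares do not apply to a few changed regions.

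In 1 of the 300 regions the relative scores of the groups did not overlap, where this held for 1% of all shared regions. That region lay on chromosome 1 (639489 to 641491, 220th in order). It scored 2600, 985, 425, 908 and 613 in injured libraries 1 to 5 and 150, 534, 37 and 365 in control libraries 1 to 4. Relative to its library every injured value was above every control value, and the difference was 2.64 (SE 0.62) on the log2 scale, with a limma adjusted p of 0.967. Its peaks were also unlike between libraries, from 163 to 2000 bp wide, with midpoints up to 1678 bp apart.

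The other regions with the lowest p higher in injured libraries lay on chromosome 23 (15995625 to 15996701) and on chromosome 20 at the position given above. On chromosome 23 the scores were 310, 298, 886, 904 and 612 in injured and 268, 311, 385 and 329 in control libraries. Injured libraries 3, 4 and 5 were above all other libraries and the groups overlapped, with a difference of 1.07 (SE 0.46) on the log2 scale and a limma adjusted p of 0.967. On chromosome 20 the difference was 2.02 (SE 0.92, limma adjusted p = 0.967), with low values in 3 control libraries and in injured library 2.

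Of the regions with a lower mean in injured libraries, the one with the lowest p was that on chromosome 17 (2363390 to 2366530), where 2 injured libraries were low, with a difference of -2.47 (SE 1.18) on the log2 scale. Then came the alternate contig ALT_CTG17_1_23 (313160 to 314454) with -1.46 (SE 0.77) and scores of 530, 2005, 41, 668 and 130 after injury, against 1890, 1366, 488 and 1285 in controls. The other was on chromosome 16 (18181296 to 18182416) with -1.08 (SE 0.61) and scores of 737, 144, 38, 177 and 152 after injury, against 565, 253, 542 and 424 in controls. In all 3 the groups overlapped and the limma adjusted p was 0.967.

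**Figure D5:**
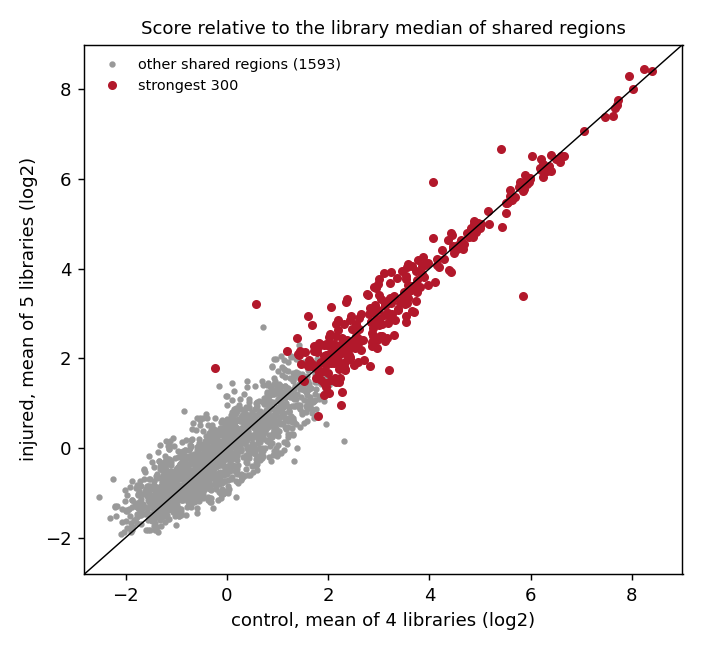
Mean log2 score relative to the library median of shared regions in the 5 injured (vertical) against the 4 control libraries (horizontal), for the strongest 300 (red) and the other 1593 shared regions (grey); the line marks equality. The 300 regions spread along the line at its upper part, and 141 of them lie above it.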

How the data were processed

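The deposited files are 1 list of called peaks per library, with positions and a score for each peak. Per the submitters' processing notes, the tools included Bowtie2 and MACS2 beside Trim Galore, Picard, SAMtools and bedtools, with no versions, and the build was GRCz11. The score is the authors' own value for each peak as deposited, and its scale, the peak threshold, the treatment of duplicates and the shift of reads remain unstated in the sources used here. Scores were ranked within a list, with ties ordered by width and position, and are printed as deposited. Libraries were compared by scores divided by the library's median of shared regions.

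Group differences in single values were tested by exact two-sided permutation over 126 assignments, with Benjamini-Hochberg adjustment over 5 values. Scores of all shared regions were tested with limma 3.58.1 in R 4.3.3 on log2 values, tested on simulated data first. Other steps used Python 3.11.15, pandas 2.3.3 and scipy 1.17.1. Positions are 1-based. Regions named are the 10 first in order, those at the limit, the widest, narrowest, most and least variable, and those with the lowest p in each direction. Others were named after their values were seen. The members and comparisons were chosen with earlier results of these data known. Alternatives were other sequences, thresholds, overlaps, numbers of regions and scalings, and leaving out each library. Gene lists were not used, for want of an annotation in GRCz11.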

Additional observations from a re-analysis of the deposited data

Results flagged for a closer look

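The groups of 4 or 5 values examined were 62 (5 values per library and 26 named regions, in each group). Of these, 3 held a library far from the others. Chance alone would give about 3.1 if the values were independent and not picked by their spread. Some regions were named for their SD or p in these same scores, so this figure is only a rough guide. On chromosome 16 (18303638 to 18304841) control library 2 had a log2 score of 0.977 relative to its library median, with the nearest control library at 2.17. On chromosome 18 (31584970 to 31585204) control library 2 was again the lowest, at 1.78, with the nearest at 2.53. On chromosome 20 (593973 to 594401) injured library 2 had -0.936, with the nearest injured library at 1.92.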

How the results depend on the processing

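The 5 values per library were recomputed without each library. A single value cannot then pass, since the smallest exact permutation p is 0.0286 (0.143 adjusted over 5) without an injured library and 0.0179 (0.0893) without a control library. That floor of 0.0286 was reached by the share of score without injured library 2 and by width without injured library 1. Without 1 library, limma called 0 to 1 shared regions, the 1 arising without injured library 2 (adjusted p = 0.0395) and lying outside the 300. Without 1 library the group difference was 1.60 (without control library 4) to 6.02 percentage points (without injured library 2) for the share of score, -20.4 (without injured library 1) to -8.05 kb (without injured library 3) for width, -3.5 to -0.75 for peak number, -0.155 to 0.0780 for the log2 ratio of medians and -0.00690 to 0.0255 for the slope, and the last 2 changed sign, the ratio without injured libraries 2, 3 or 4 or control libraries 1 or 3 and the slope without injured library 2 or control library 1. With 150 regions the difference was 1.55 for peak number and 0.0828 for the log2 ratio, both opposite in sign (exact permutation p = 0.349 and 0.706). The 3 of the 300 regions with an unadjusted limma p below 0.05 became 5 on chromosomes 1 to 25 alone, 5 with the replicate block, 2 with summed scores and 1 with libraries centred on the 300 regions. Over all regions tested the counts were, in the same order, 59 of 1617 and 49, 69 and 40 of 1893. Of the 300 regions 32% had a higher injured mean without injured library 1, against 50.3% of all shared regions. Without injured library 3 it was 63.7% against 55.6%. With 150 regions 14.7% of those on chromosomes lay at ends and 10% exceeded 8-fold. The 6 regions named by their p had the same sign of difference under every alternative run, with a lowest adjusted p of 0.0663, for chromosome 1 without control library 2. They were picked by p from the same scores that the alternatives reuse, so keeping the sign is no independent support. Centring on the 300 regions, leaving out scaffold KN149723.1 and the alternatives to shares by position, range or ratio were chosen after seeing the data; the cause of these changes was not tested.

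Libraries with the same replicate number did not stand out as alike (correlations of deviations 0.0109, -0.0327, -0.213 and 0.123). Between libraries with different numbers the correlations ran from -0.161 to 0.292. These values cannot settle whether the numbers mark pairs. With the number as a replicate block limma called 0 regions (lowest adjusted p = 0.994), and the share of score differed by 1.80 percentage points (exact sign-flip permutation p = 0.625, where 0.125 is the smallest possible). Unknown depth limits every score, and a library's low score is not evidence of closed chromatin.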
